A study of Homo sapiens with 9 samples.

Results

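NEAT1 and MALAT1, neighbouring genes for long noncoding RNAs (lncRNAs) on chromosome 11, were examined for binding of the SWI/SNF chromatin remodeling complex in HepG2, an established human liver cancer cell line. A peak of an ARID list was included when the authors had assigned it to NEAT1 or MALAT1 as nearest gene. Any peak of the 4 lists in a 100-kb window (hg19) from upstream of NEAT1 to 4456 bp past the end of MALAT1 was also included. This gave 82 of the 55293 deposited peaks: 26 of 12852 for ARID1A, 9 of 8728 for ARID1B, 27 of 12995 for ARID2 and 20 of 20718 for SNF5. No peak assigned to either gene lay outside the window.

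The series held 9 libraries from HepG2: 2 replicates for each of 4 antibodies, and 1 input library, which was not analysed here. The labels give a single line with no treatment or genetic change that set the groups apart, so antibody is the only difference between groups that they name. The authors merged both replicates before calling peaks, so each subunit is represented by 1 list with no spread between replicates and no known depth. With 1 list per subunit, the subunit, its antibody and its depth cannot be told apart.

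SWI/SNF uses the energy of ATP to slide or evict nucleosomes. ARID1A and ARID1B are alternative subunits of its BAF form, ARID2 belongs to its PBAF form, and SNF5 (SMARCB1) is a core subunit of both. NEAT1 RNA is the scaffold of paraspeckles, nuclear bodies that hold RNA-binding proteins: a short and a long isoform share their 5′ end, and the long one builds the body. MALAT1 RNA collects at nuclear speckles, which are rich in splicing factors. Both RNAs stay in the nucleus and are abundant in many cell types.

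By the Gencode v44 annotation on GRCh37 (the same assembly as hg19), NEAT1 (ENSG00000245532) lies on the plus strand at chr11:65190245-65213011 (22.8 kb), and its short isoform ends at 65193928. MALAT1 (ENSG00000251562) follows on the same strand, 52.1 kb further on, at chr11:65265111-65275544 (10.4 kb). The annotation gives MALAT1 66 transcripts with 40 different starts, and the most used single start, shared by 19 of them, is internal, at 65266516. The antisense lncRNA TALAM1 (65266783 to 65274903) lies within MALAT1, and since a ChIP peak has no strand, the 6 ARID1A, 1 ARID1B, 5 ARID2 and 5 SNF5 peaks that touch it cannot be given to either gene.

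The sites where all 3 ARID peaks coincided were the narrowest common ground between the lists. There were 7 such intervals in the window, of 68 to 715 bp, and SNF5 overlapped each of them. In all lists together, 1559 of 1628 such intervals overlapped SNF5. The hg19 reference around 5 of them is shown, 300 bp centred on the shared interval and read along the plus strand. These 5 mark the gene starts and some, but not all, of the shared sites between the genes. Capitals mark letters matching 1 of 11 motifs on either strand.

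NEAT1 start, chr11:65190039-65190338: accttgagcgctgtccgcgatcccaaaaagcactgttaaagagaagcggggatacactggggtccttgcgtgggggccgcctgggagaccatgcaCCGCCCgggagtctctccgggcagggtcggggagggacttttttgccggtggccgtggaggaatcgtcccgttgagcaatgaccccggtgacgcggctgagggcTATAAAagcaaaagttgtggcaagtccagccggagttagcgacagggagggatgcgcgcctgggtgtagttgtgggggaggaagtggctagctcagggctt
MALAT1 5′ start, chr11:65264953-65265252: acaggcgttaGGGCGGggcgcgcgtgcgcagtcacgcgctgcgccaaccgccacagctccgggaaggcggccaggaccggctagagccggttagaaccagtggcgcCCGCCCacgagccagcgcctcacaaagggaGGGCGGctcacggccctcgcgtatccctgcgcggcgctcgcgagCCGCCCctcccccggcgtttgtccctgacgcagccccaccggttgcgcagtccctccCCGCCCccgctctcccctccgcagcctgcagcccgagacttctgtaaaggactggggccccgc
MALAT1 internal start, chr11:65266291-65266590: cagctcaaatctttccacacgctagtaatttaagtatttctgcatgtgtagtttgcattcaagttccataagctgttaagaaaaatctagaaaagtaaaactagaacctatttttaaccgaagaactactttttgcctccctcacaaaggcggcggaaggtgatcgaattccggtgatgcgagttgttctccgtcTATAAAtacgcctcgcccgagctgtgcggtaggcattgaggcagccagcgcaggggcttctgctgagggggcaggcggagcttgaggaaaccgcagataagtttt
Between the genes, GC-rich site, chr11:65244810-65245109: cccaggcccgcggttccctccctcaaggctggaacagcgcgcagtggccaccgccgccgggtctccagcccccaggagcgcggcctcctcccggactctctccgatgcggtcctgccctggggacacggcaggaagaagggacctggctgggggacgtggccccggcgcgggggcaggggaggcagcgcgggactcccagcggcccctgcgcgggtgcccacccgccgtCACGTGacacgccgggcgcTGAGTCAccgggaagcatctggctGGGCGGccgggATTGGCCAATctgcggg
Between the genes, upstream of MALAT1, chr11:65255354-65255653: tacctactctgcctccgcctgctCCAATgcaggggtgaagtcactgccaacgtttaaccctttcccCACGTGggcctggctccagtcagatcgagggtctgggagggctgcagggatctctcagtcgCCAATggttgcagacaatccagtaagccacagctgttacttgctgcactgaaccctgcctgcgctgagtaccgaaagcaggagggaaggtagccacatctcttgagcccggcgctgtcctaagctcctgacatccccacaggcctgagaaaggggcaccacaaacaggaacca

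The NEAT1 window held a TATA box (TATAAA) whose first base lay 7 bp before the annotated start and a GC box (GGGCGG, here read on the minus strand). The window at the 5′ start of MALAT1 held 5 GC boxes and no TATA box, with 74.0% GC and 38 CpG dinucleotides. The window at its internal start was the opposite, with 46.7% GC, 15 CpG, no GC box and a TATA box at 65266486, its first base 23 bp before the next annotated start. That start, at 65266509, belongs to 1 transcript, and the start shared by 19 transcripts lies further on, at 65266516. Among the 1628 shared windows, 5.96% held TATAAA and 55.0% held GGGCGG on either strand, and the median was 63.0% GC with 22 CpG.

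The GC-rich site between the genes (75.7% GC, 32 CpG) held an E-box (CACGTG), an AP-1 motif (TGANTCA), a GC box and 2 CCAAT boxes (CCAAT) that adjoin each other on opposite strands. The site upstream of MALAT1 held 2 CCAAT boxes and an E-box. Of all shared windows, 27.6% held CCAAT, 10.6% CACGTG and 6.33% TGANTCA. The 2 shared sites not printed, at 65189443 to 65189519 upstream of NEAT1 and at 65256749 to 65256865 upstream of MALAT1, each held a heat shock element (GAANNTTC), found in 5.84% of shared windows. The ETS (CCGGAAG), CRE (TGACGTCA), FOXA (TGTTTAC), TEAD (GGAATG) and HNF4 (CAAAGTCCA) letters were in 0 of the 7 windows, beside 12.1%, 2.4%, 5.04%, 12.8% and 1.78% of all shared windows. With only 7 windows and shares this low, 0 matches does not show that a motif is rarer here. A match is a stretch of letters and not a measured site.

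RefSeq (GRCh38.p14) lists 2 promoters for MALAT1, which match hg19 exactly at chr11:65264959-65265258 and chr11:65266266-65266565, and overlap the printed MALAT1 windows. Of the 300 bp of the first, ARID1A covered 300, ARID1B 219, ARID2 249 and SNF5 300. Of the second, the coverage was 159, 209, 207 and 300 bp in the same order. Peaks of all 4 lists thus covered part or all of each MALAT1 promoter window. In 35116 RefSeq promoters of this length, TATAAA was present in 11.5% and GGGCGG in 45.0%.

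The first question was where binding lay along the window. Peaks lay around the start of NEAT1, at scattered places between the genes, and over MALAT1. The longest stretch without an ARID peak was 24.3 kb, and the next, of 15.5 kb and 7.79 kb, lay between the genes. The stretch just before MALAT1 was shorter, at 4.23 kb, and held 2 SNF5 peaks.

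**Figure D1:**
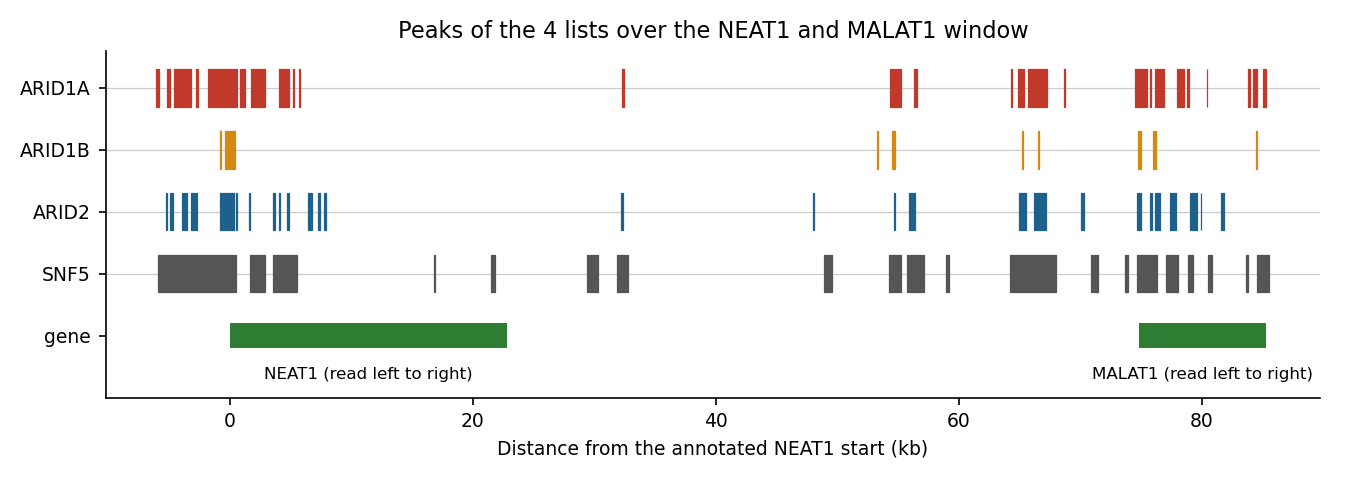
Peaks of ARID1A, ARID1B, ARID2 and SNF5 (bars, 1 row per list) against distance from the annotated NEAT1 start in kb, with both genes in green. The longest stretch without an ARID peak, 24.3 kb, starts inside NEAT1 and runs past its end.

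At the start of NEAT1 each list had one of its widest peaks. ARID1A had a peak of 2401 bp (65188411 to 65190811), the ninth widest of its list. The ARID1B peak over the start was 819 bp wide (65189831 to 65190649), at width rank 143 of 8728. The ARID2 peak measured 1103 bp (65189443 to 65190545), at rank 149 of 12995. SNF5 had a peak of 6407 bp (65184340 to 65190746), at width rank 15 of 20718 and with a deposited score of 34, which is score rank 813. All 4 peaks cover the annotated start.

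Within 1000 bp on either side of the NEAT1 start, ARID1A peaks covered 89.2% of the bases, SNF5 75.1%, ARID2 59.4% and ARID1B 46.4%. This was the highest coverage of any segment for each list. The 9244 bp of the window further upstream held 4 ARID1A peaks, 4 ARID2 peaks and no ARID1B peak by midpoint. There the SNF5 peak ran on over 53.1% of the bases, ARID1A covered 30.8% and ARID2 13.1%. ARID1B at NEAT1 was thus limited to 2 peaks, both within 1000 bp of the start.

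Inside NEAT1, ARID peaks ended early. The last ARID1B peak ended 0.405 kb into the gene, the last ARID1A peak 5.72 kb and the last ARID2 peak 7.89 kb, which is 34.7% of the gene length. Beyond 1000 bp from the start, each gene body was divided into 3 equal sections. The middle section of NEAT1 (7256 bp) held no peak of any list. The final section (7255 bp) held 2 SNF5 peaks of 144 and 383 bp, with scores of 28 and 15, and no ARID peak. The short isoform (3684 bp), whose bases the long isoform also holds, was covered by ARID1A over 59.6%, SNF5 over 52.0%, ARID2 over 16.6% and ARID1B over 11%. In the 19083 bp found only in the long isoform, the shares were 5.03% for ARID1A, 12.6% for SNF5, 4.0% for ARID2 and 0.0% for ARID1B.

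Within NEAT1, some ARID1A and ARID2 peaks coincided and others did not. In the part found only in the long isoform, the widest ARID1A peak (65194315 to 65195137, 823 bp) was overlapped by 2 ARID2 peaks of 52 and 150 bp. ARID2 also had 3 peaks of 302, 132 and 127 bp between 65196665 and 65198136, past the last ARID1A peak, and none of them overlapped SNF5. ARID1A had a 1210-bp peak (65191946 to 65193155) in the short isoform that no other ARID overlapped and that lay mostly under a 1259-bp SNF5 peak with a score of 25. An ARID2 peak of 113 bp (65191818 to 65191930) nevertheless adjoined this ARID1A peak, with 15 bp between them, and overlapped the same SNF5 peak. A 420-bp ARID1A peak closer to the start (65191029 to 65191448) overlapped no other list.

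**Figure D2:**
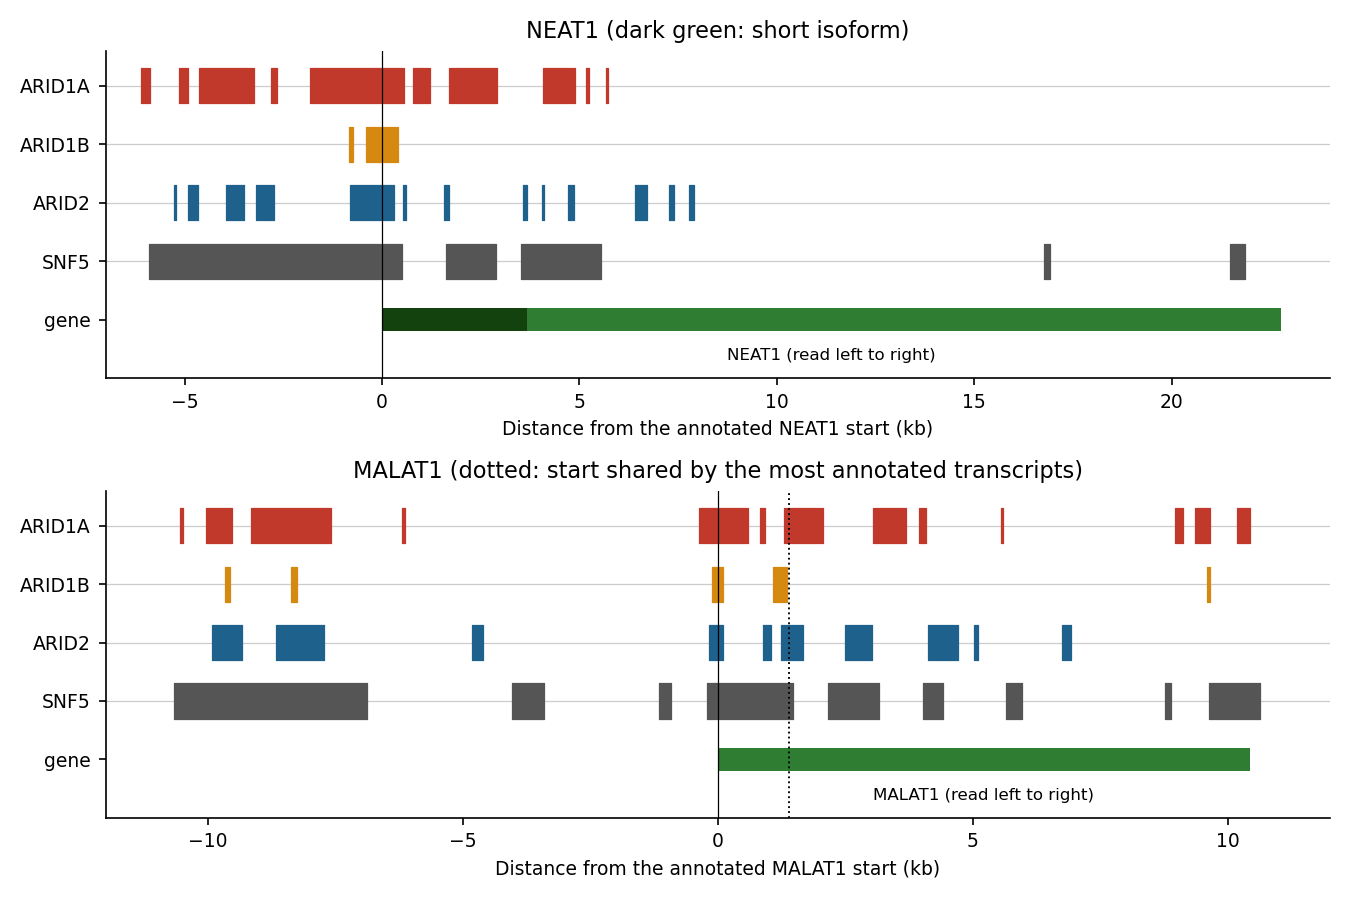
Peaks of the 4 lists (bars) around NEAT1 (upper panel) and MALAT1 (lower panel), against distance in kb from each annotated start (solid line). ARID peaks end within 7.89 kb of the NEAT1 start but reach along MALAT1, where ARID1A runs to the end at 10.4 kb.

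Over MALAT1 the peaks reached further along the gene. Measured from the start, the last ARID2 peak ended at 66.4% of the gene length and the last ARID1B peak at 92.5%, and ARID1A and SNF5 peaks ran over the 3′ end. ARID1A had 9 peaks touching the gene and covered 28.7% of it, ARID2 had 7 and covered 19.6%, and ARID1B had 3 and covered 4.13%. SNF5 had 6 peaks and covered 39.4%. The same values at NEAT1, which is longer, were 13.9% for ARID1A, 6.04% for ARID2, 1.78% for ARID1B and 18.9% for SNF5. Per base, each list therefore covered more of MALAT1 than of NEAT1.

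The annotated 5′ start of MALAT1 lay under an ARID1A peak of 971 bp (65264744 to 65265714), an ARID1B peak of 219 bp (65264998 to 65265216) and an ARID2 peak of 269 bp (65264939 to 65265207). A separate peak of each ARID lay near the internal start: 765 bp for ARID1A (65266407 to 65267171), 273 bp for ARID1B (65266202 to 65266474) and 435 bp for ARID2 (65266359 to 65266793). The ARID1B peak stopped short of 65266516, and those of ARID1A and ARID2 spanned it. A single SNF5 peak of 1687 bp (65264902 to 65266588) joined both starts. Its score of 39 was the highest in the window and stood at rank 338 of the SNF5 list.

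Further into MALAT1 the lists parted. In the middle section of the body ARID2 covered 25.6% and ARID1A 1.69%. The widest ARID2 peak of this section (65269235 to 65269817) nevertheless adjoined an ARID1A peak (65269066 to 65269196), with 38 bp between them. Both overlapped the same SNF5 peak (65269135 to 65269536). In the final section ARID1A covered 22.6% with 3 peaks and ARID2 0.0%. ARID1B had 1 peak of 52 bp there (65274711 to 65274762), which overlapped ARID1A. An SNF5 peak of 998 bp with a score of 29 (65274750 to 65275747) ran over the 3′ end of the gene.

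**Figure D3:**
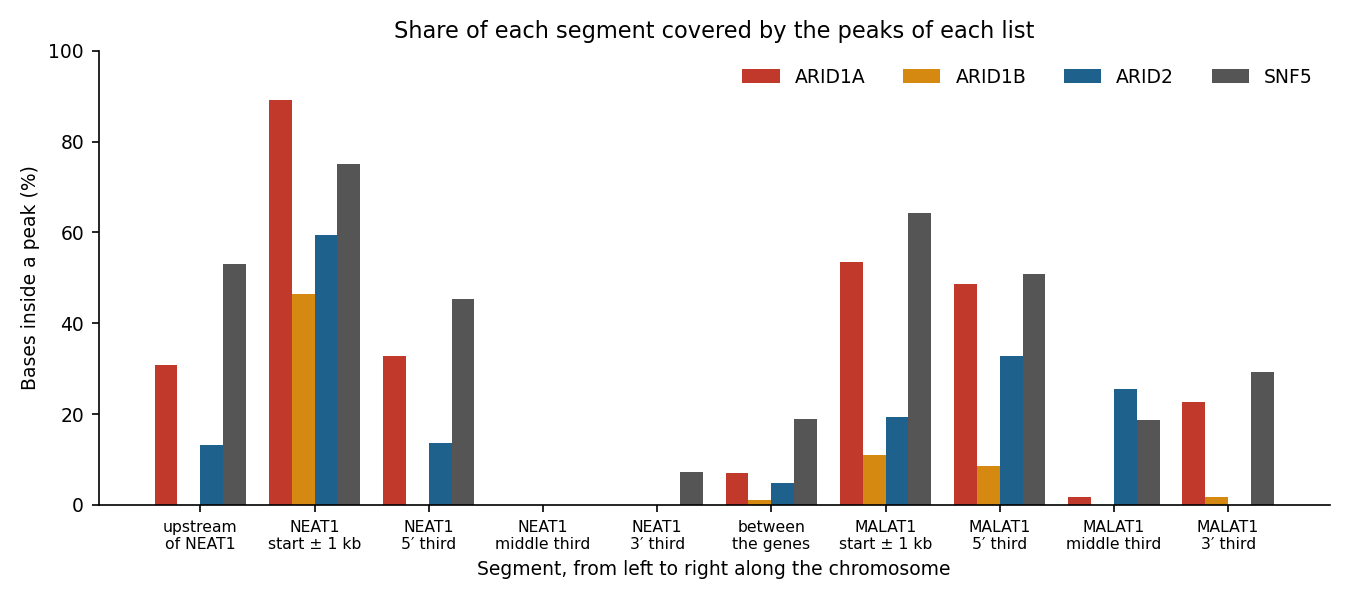
Percentage of bases inside a peak (bars, one colour per list) in 10 segments ordered along the chromosome. Coverage is highest within 1 kb of the NEAT1 start (89.2% for ARID1A), and the middle section of NEAT1 holds no peak.

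The authors' feature classes gave a different picture of MALAT1 from the distances to its 5′ start. Peaks in the deposited promoter class had distances of up to 998 bp to a transcript start. This limit was read from the deposited distances, and the study describes its promoters by a wider one. Of the 4 ARID1A peaks assigned to MALAT1 in this class, 1 lay within 1000 bp of the 5′ start and 3 elsewhere in the gene. For ARID2 the split was also 1 and 3, and for ARID1B it was 1 and 1. For NEAT1 all promoter-class peaks, 2 of each ARID, lay within 1000 bp of the 5′ start. Over the window 8 of 26 ARID1A peaks were in the promoter class, as were 4 of 9 for ARID1B and 8 of 27 for ARID2. The distal class held 13, 5 and 10 in the same order. The promoter class held 72.6% of the whole ARID1A list, 37.9% of ARID1B and 67.0% of ARID2, and the distal class 12.6%, 25.8% and 13.6%. The distal class includes peaks that lie within the 3′ part of MALAT1, such as the 3 ARID1A peaks of its final section.

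Between the genes (51099 bp) lay 7 ARID1A, 4 ARID1B, 7 ARID2 and 9 SNF5 peaks, and 2 places held all 4 lists. The first was at 65244503 to 65245497, about 20 kb upstream of MALAT1, where the ARID1A peak was 896 bp, the ARID1B peak 276 bp, the ARID2 peak 100 bp and the SNF5 peak 955 bp with a score of 33. The second was an SNF5 peak of 3797 bp (65254445 to 65258241), at width rank 123 and with a score of 24. It spanned 3 ARID1A, 2 ARID1B and 2 ARID2 peaks, the widest of them an ARID1A peak of 1575 bp (65255958 to 65257532). The annotation places the lncRNAs LINC02736 and ENSG00000286756 under this SNF5 peak. ENSG00000286756 starts at 65255355 on the plus strand, inside the printed window upstream of MALAT1. The first place also holds an annotated start, that of the lncRNA ENSG00000289883 at 65245043 on the minus strand. That start lies inside the printed window of the GC-rich site. The authors assigned all ARID peaks of both places to MALAT1, at distances of 8301 to 20360 bp.

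Peaks assigned to neither gene were 2 for ARID1A, 1 for ARID1B and 3 for ARID2. They carried the names AP000769.1, for peaks between the genes, and AP000769.7, for peaks near the MALAT1 start. The AP000769.1 promoter held an ARID1A peak of 222 bp and an ARID2 peak of 89 bp, which overlapped each other and an SNF5 peak of 982 bp with a score of 20.

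The next question was how far the lists shared sites. SNF5 overlapped 21 of 26 ARID1A peaks, 8 of 9 ARID1B peaks and 19 of 27 ARID2 peaks by at least 1 bp. In the whole lists the shares were 71.3%, 62.9% and 67.2%. A peak of another ARID overlapped 14 of 26 ARID1A peaks, 8 of 9 ARID1B peaks and 15 of 27 ARID2 peaks, where the whole lists gave 47.6%, 40.1% and 46.9%. The deposited single or multiple label gave the same answer for every one of these peaks. From the other side, 11 of 20 SNF5 peaks were overlapped by an ARID peak, against 50.9% of the whole list.

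Most of the bases in the 9 ARID1B peaks were also in peaks of the other lists, though not every ARID1B peak lay wholly inside them. Of the 2062 bp that the 9 peaks covered, 85.4% were also in an ARID1A peak, 69.7% in an ARID2 peak and 93.6% in an SNF5 peak. The widest of the 9, at the NEAT1 start, made up 819 bp. Over the whole ARID1B list the same shares of bases were 28.5%, 22.5% and 67.8%. The single ARID1B peak outside the other lists was 93 bp wide (65243534 to 65243626). For ARID1A, 30.1% of the bases were in ARID2 peaks, beside 30.9% of the whole list, and 80.6% were in SNF5 peaks, beside 72.6%. For ARID2, 51.8% were in ARID1A peaks and 78.9% in SNF5 peaks, beside 37.4% and 69.4%. No test was made, since the peaks of 1 locus are not independent and there is 1 list for each subunit.

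Base by base in the window, SNF5 coverage went with the number of ARID lists. SNF5 peaks held 13.0% of the 81891 bp with no ARID, 70.5% of the 13493 bp with 1 ARID, 91.3% of the 3226 bp with 2 and every one of the 1390 bp with all 3. This split was not made over the whole lists, so it is not shown to be particular to the locus. Over the whole lists, SNF5 peaks held 72.6% of ARID1A, 67.8% of ARID1B and 69.4% of ARID2 bases. Merging all 4 lists gave 33 regions in the window, of which 4 held every list, 9 held SNF5 alone and 13 held 1 ARID without SNF5. Of the 30747 regions of the whole series, 7.05% held every list, 33.1% held SNF5 alone and 30.7% held 1 ARID without SNF5, beside 12.1%, 27.3% and 39.4% in the window. The 4 were the NEAT1 start, both places between the genes, and the 2.43-kb region over both MALAT1 starts.

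The SNF5 score, a whole number from the authors' peak caller, was available for SNF5 alone. The 20 SNF5 peaks scored from 15 to 39, with a median of 20, beside a median of 19 for the list. The 11 overlapped by an ARID scored from 15 to 39 with a median of 25 and had a median width of 1259 bp. The 9 without an ARID scored at most 28, with a median of 18 and a median width of 311 bp. In the whole list the median scores were 22 with an ARID and 17 without. Widths of the whole list were not split in this way, so the width difference here has no baseline. The median width of the 20 peaks was 916 bp, beside 535 bp for the list, so they differed from it more in width than in score.

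**Figure D4:**
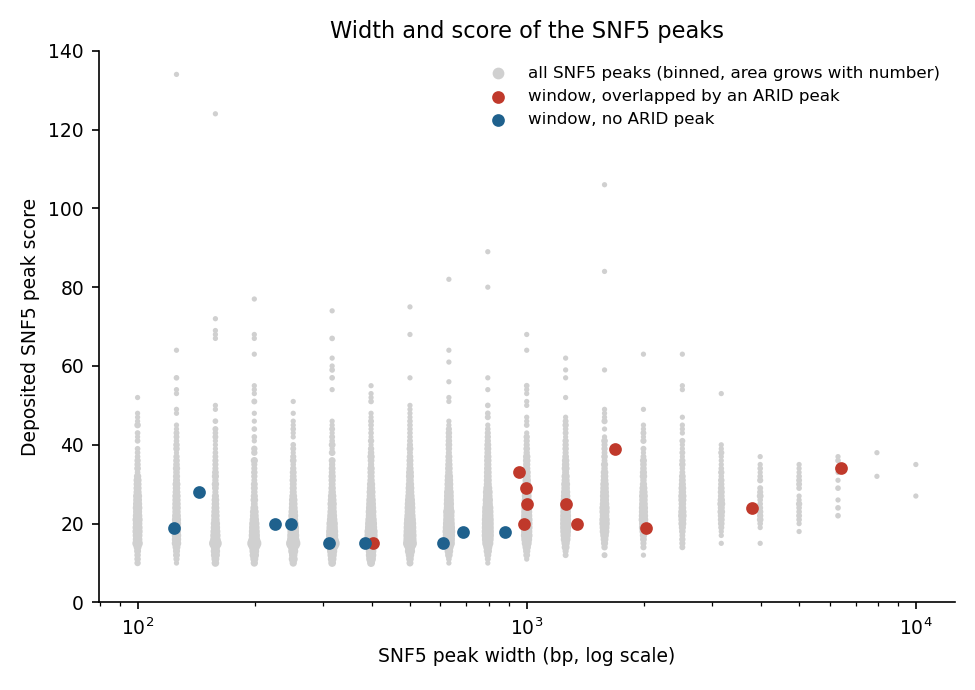
Width (bp, log scale) and deposited score of each SNF5 peak in the window, in red where an ARID peak overlaps it and in blue where none does, over all 20718 SNF5 peaks in grey (binned by width). The widest red point is the 6407-bp peak at NEAT1 with a score of 34, and the blue points stay at or below a score of 28.

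Set against other genes, NEAT1 and MALAT1 collected many peaks. Gene names with at least 1 assigned peak had a median of 1 in each ARID list, the lowest count possible. MALAT1 was assigned 14 ARID1A peaks, rank 4 of 8437 names, 6 ARID1B peaks, rank 46 of 5528, and 11 ARID2 peaks, rank 12 of 7796. NEAT1 was assigned 10 ARID1A peaks (rank 10), 2 ARID1B peaks (rank 621, a count held by 976 names) and 13 ARID2 peaks (rank 6). Tied names share the best rank: 9 names held 10 ARID1A peaks, and 3 held 13 ARID2 peaks. The MALAT1 counts of 6 ARID1B and 11 ARID2 peaks were held by 27 and 3 names. By the summed width of assigned ARID1A peaks NEAT1 was first, with 7007 bp, and MALAT1 second, with 6624 bp. Distal peaks count toward a name too. With only peaks at most 5000 bp from a start, the ARID1A ranks were 23 for NEAT1 and 14 for MALAT1.

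**Figure D5:**
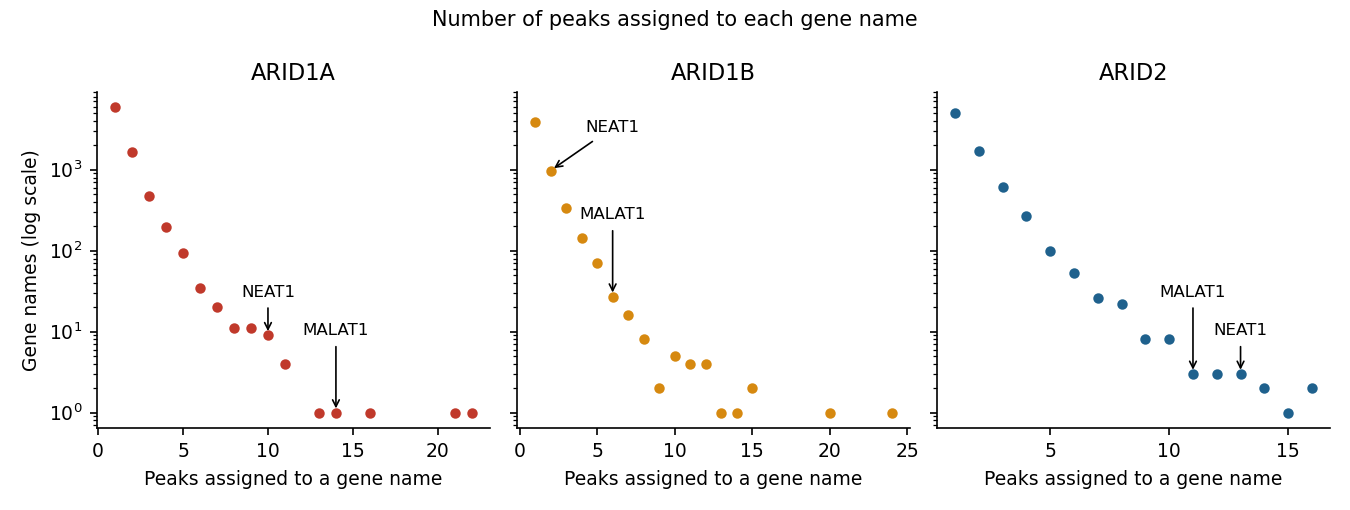
Number of gene names (log scale) by the number of peaks the authors assigned to them, 1 panel per ARID list, with arrows at NEAT1 and MALAT1. MALAT1 has 14 ARID1A peaks and NEAT1 13 ARID2 peaks, at the sparse right end, while NEAT1 has 2 ARID1B peaks, a count it shares with many names.

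By position rather than by name, 966 of 18592 annotated lncRNA genes (5.2%) had a peak of every list in the gene or within 1000 bp, and both genes were among them. Counted this way, MALAT1 had 9 ARID1A, 3 ARID1B, 7 ARID2 and 7 SNF5 peaks, and NEAT1 had 6, 2, 9 and 5. The median of lncRNA genes with any peak was 1 in each list. By bases covered, NEAT1 was at rank 5 among lncRNA genes for ARID1A and rank 19 for ARID2, and MALAT1 at ranks 8 and 18. For ARID1B they were at ranks 112 and 279, and for SNF5 at ranks 75 and 102.

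The whole window was compared with the other 100-kb windows of the autosomes and chromosome X. These lay on a fixed grid set by this window's own start, and those with 50% or more unknown bases were left out. This window was thus placed around the genes studied, while the others were cut without regard to genes or peaks. ARID1A peaks covered 13952 bp of it, the third highest of 28349 windows. SNF5 covered 24469 bp, also the third highest, and ARID2 8101 bp, the fifth. ARID1B covered 2062 bp, at rank 69. The window held 0.354% of all bases in ARID1A peaks, 0.248% for ARID2, 0.158% for SNF5 and 0.112% for ARID1B. On chromosome 11 it ranked first in each list.

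Base composition differed from the lists in one direction for ARID1A, whose peaks here had a median of 55.1% GC, beside 64.1% for the list, and 3 of 26 were above that list median. ARID2 peaks here had a median of 51.6% GC beside 57.2%, and SNF5 peaks 48.9% beside 53.0%. ARID1B peaks were the exception, at 56.9% beside 52.1%, with 7 of 9 above the list median.

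Other genes tied to the same nuclear bodies were counted from fixed lists. Of 16 genes for paraspeckle proteins, 14 were assigned an ARID1A peak, 5 an ARID1B peak and 10 an ARID2 peak, and 5 were in all 3 lists. The background over 20149 protein-coding symbols was 31.1%, 16% and 27.7%. A background share for presence in all 3 lists is not given here. Those with many peaks over the 3 lists included SS18L1, which encodes a SWI/SNF subunit of neurons (1 ARID1A, 2 ARID1B and 4 ARID2 peaks), DAZAP1, which encodes an RNA-binding protein (4, 0 and 2), and SMARCA4, the BRG1 ATPase of SWI/SNF (1, 3 and 2). Neither PSPC1 nor NUDT21 was assigned a peak.

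Of 14 genes for nuclear speckle proteins, 10 were assigned an ARID1A peak, 7 an ARID1B peak and 12 an ARID2 peak, and 6 were in all 3 lists. The splicing factor genes SRSF3 (5, 1 and 2 peaks of ARID1A, ARID1B and ARID2), U2AF2 (3, 1 and 2) and SRSF7 (2, 1 and 2) had the most. The protein-coding background was again 31.1%, 16% and 27.7%, with no share for presence in all 3 lists. It is not matched for expression, so nothing particular to these lists follows from it.

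Of 14 other nuclear or abundant lncRNA genes, 6 were assigned an ARID1A peak, 5 an ARID1B peak and 5 an ARID2 peak, and 6 had none. By position, 15.3%, 9.15% and 13.7% of all annotated lncRNA genes had a peak in the gene or within 1000 bp, which is another measure than assignment by name. The highest counts were for KCNQ1OT1, the antisense RNA of an imprinted domain (3, 1 and 3), for CYTOR, listed as LINC00152 (1, 1 and 3), and for NORAD, listed as LINC00657 (1, 1 and 1). DANCR had 1 ARID1A and 2 ARID1B peaks. None of the 14 had more than 3 peaks in a list, where NEAT1 and MALAT1 had 10 and 14 for ARID1A and 13 and 11 for ARID2. For ARID1B, NEAT1 had 2 peaks, the same number as DANCR, and MALAT1 had 6.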

How the data were processed

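HepG2 chromatin was immunoprecipitated for ARID1A, ARID1B, ARID2 and SNF5, and libraries were grouped by the antibody in their titles. Per the study's methods, the authors aligned reads to hg19 with bowtie2, merged both replicates of an antibody, called broad peaks with MACS2, joined close peaks and dropped blacklisted ones. The use of the input as control is not given in the sources used here. The authors deposited 1 list per subunit with positions in bp, and the SNF5 list carries a whole-number score. For ARID peaks they also deposited a feature class, nearest gene, distance, single or multiple label and chromatin state (the last not used for location). The lists hold no read counts.

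Peaks were intersected with Python 3.11.15, pandas 2.3.3 and numpy 2.4.6, after checks on simulated intervals. Overlap meant at least 1 shared bp, and starts are counted from 1. NEAT1 and MALAT1, the gene lists and the motifs were chosen with earlier results of these data known. Genes were named where peaks lay in or next to the window, and in each list the 2 to 4 with most peaks, of which 1 is not reported here. Gene names placed on several chromosomes were left out of the ranks by name. No test was made. Alternatives to the overlap rule, the choice of peaks, and the ranks were computed.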

Additional observations from a re-analysis of the deposited data

How the results depend on the processing

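Of 74 alternatives to 31 values, 37 stayed within 1.5 times a count or within the interval of a share. Joining peaks at most 1000 bp apart left 10 ARID1A and 13 ARID2 peaks, and taking peaks within 5000 bp of the gene bodies left 5 ARID1B and 13 SNF5 peaks. With a reciprocal overlap of at least 50%, SNF5 matched 2 ARID1A, 0 ARID1B and 2 ARID2 peaks, another ARID matched 3, 2 and 5, and an ARID matched 4 SNF5 peaks. With midpoints at most 500 bp apart, SNF5 matched 12, 2 and 9 peaks of ARID1A, ARID1B and ARID2. With a gap of at most 1000 bp, another ARID matched 25 ARID1A peaks. Whole-list shares under these other overlap rules are not given here, so these counts are not shown to be particular to the locus. Joined peaks covered 4451 bp of NEAT1 for ARID2, and 5616, 1416, 4182 and 6398 bp of MALAT1 for ARID1A, ARID1B, ARID2 and SNF5. With NEAT1 extended by 1000 bp on each side, ARID1B covered 928 bp and ARID2 2176 bp. By summed width, NEAT1 ranked 1, 324 and 20 for ARID1A, ARID1B and ARID2, and MALAT1 2 and 241 for ARID1A and ARID1B. With peaks within 5000 bp of a start, NEAT1 ranked 23 and 272, and MALAT1 14 and 103, for ARID1A and ARID1B. On chromosome 11, 99.92% of windows lay below this one in each list. Among 9448 windows with a peak, a set that was the same for all lists, the share was 99.27% for ARID1B and 99.95% for ARID2. The median ARID1B coverage in this set was 0.0 bp, so many of its windows held no ARID1B peak. The causes were not tested, beyond the alternatives' own construction: a stricter overlap counts fewer peaks, and joined peaks count the gaps between them.

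No paired analysis was possible because the deposited lists merge both replicates, and leave-one-out values cannot be had for the same reason. Depth is unknown, so a missing peak, such as ARID1B along most of NEAT1, is not evidence of no binding. Antibody and subunit cannot be told apart.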

Other observations

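The chromatin state that the authors deposited for each ARID peak was compared between near-coincident peaks, which share at least 80% of their bases. The state was the same in 190 of 379 pairs of ARID1A and ARID2 peaks (50.1%), 74 of 146 pairs of ARID1A and ARID1B peaks (50.7%) and 47 of 112 pairs of ARID1B and ARID2 peaks (42.0%). Independent states would give 43.4%, 26.9% and 27.5% for these pairs. The deposited feature class of the same pairs matched in 99.5% of the ARID1A and ARID2 pairs and in all others. The active promoter state was given to 49.7% of 1623 distal ARID1A peaks and to 67.2% of 9333 promoter ARID1A peaks. The cause was not tested, and the states at NEAT1 and MALAT1 are not described here.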
